A study of Homo sapiens with 6 samples.

Results

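The genes described here are 10 plasma carriers and protease inhibitors of the liver: TTR, RBP4, SERPINA1, SERPINA6, SERPINA7, AMBP, AHSG, FETUB, ITIH2 and AGT. They were chosen by symbol, and all 10 have a row among the 19846 genes of the table. Messenger RNA was measured in HepG2, a human liver tumour cell line, at passage 7 to 9 in both groups. In the 3D group (3 samples) the cells grew in an interwoven hollow fiber bioreactor, in EMEM and DMEM mixed in equal parts with 10% serum, with medium recirculated at 23.5 mL/min and fed at 2 mL/hour. In the 2D group (3 samples) they grew in EMEM on 6-well plates, seeded at 200000 cells per square centimetre, with medium renewed every 2 days; serum is not stated for this medium. Culture form, medium and feeding therefore cannot be told apart in any difference given here. The comparison asks how 3D culture changes the expression of HepG2 cells. Libraries held 9530820 to 15897619 counts in 3D and 16270376 to 17943529 counts in 2D. Nothing states that replicates are independent cultures, so the p-values given reflect the spread among these libraries, which may be technical. In a principal component analysis the first component (68.6% of the variance) separated the cultures, and on the second (13.3%) 3D replicate 1 stood apart from the other 3D libraries.

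Hepatocytes secrete these proteins into the blood. TTR carries thyroxine and binds RBP4, the carrier of retinol, in a complex that is too large to be lost through the kidney. SERPINA7 is the thyroxine-binding globulin and SERPINA6 the corticosteroid-binding globulin, and both are serpins that carry hormones rather than block proteases. SERPINA1, antitrypsin, is a serpin that inhibits neutrophil elastase. AMBP is a precursor that is cut into the lipocalin alpha-1-microglobulin and the Kunitz-type inhibitor bikunin, and bikunin is joined to heavy chains such as ITIH2 to form inter-alpha-trypsin inhibitor. AHSG and FETUB, the fetuins, belong to the cystatin superfamily. AHSG binds calcium phosphate in plasma and FETUB inhibits ovastacin, a protease of the egg. AGT, angiotensinogen, is a serpin by fold and the precursor of the angiotensin peptides.

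HNF1, HNF4, FOXA and C/EBP factors are known to act on many promoters of secreted liver proteins, and the sequences just before the start of 5 of the genes are shown. AHSG and FETUB were chosen because they are neighbours that moved in opposite directions, and the serpins because an inhibitor and 2 hormone carriers of 1 family can be set side by side. RefSeq (GRCh38.p14) gave promoter windows for 8 of the 10 genes, all but TTR and ITIH2. Each line holds the 250 bases before an annotated start, 5′ to 3′ on the strand of the gene. Capitals mark matches on either strand to GTTAAT (HNF1), TGTTTAC (FOXA), AAAGTCC (HNF4) or TTGCNNAA (C/EBP).
AHSG, chr3:186612810-186613059, plus strand: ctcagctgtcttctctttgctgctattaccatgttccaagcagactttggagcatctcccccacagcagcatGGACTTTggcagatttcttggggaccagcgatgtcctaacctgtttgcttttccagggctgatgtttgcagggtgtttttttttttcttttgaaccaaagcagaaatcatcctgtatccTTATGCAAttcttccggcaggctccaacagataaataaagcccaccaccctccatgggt
FETUB, chr3:186635719-186635968, plus strand: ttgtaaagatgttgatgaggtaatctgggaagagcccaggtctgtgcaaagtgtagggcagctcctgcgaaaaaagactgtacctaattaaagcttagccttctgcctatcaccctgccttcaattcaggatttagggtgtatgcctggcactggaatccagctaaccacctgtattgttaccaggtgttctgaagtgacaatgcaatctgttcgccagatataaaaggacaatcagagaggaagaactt
SERPINA1, chr14:94388603-94388852, minus strand: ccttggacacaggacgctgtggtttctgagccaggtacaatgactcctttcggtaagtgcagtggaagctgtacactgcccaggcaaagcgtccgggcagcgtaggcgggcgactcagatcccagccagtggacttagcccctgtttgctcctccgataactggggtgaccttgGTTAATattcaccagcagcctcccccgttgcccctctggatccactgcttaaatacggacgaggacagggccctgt
SERPINA6, chr14:94323337-94323586, minus strand: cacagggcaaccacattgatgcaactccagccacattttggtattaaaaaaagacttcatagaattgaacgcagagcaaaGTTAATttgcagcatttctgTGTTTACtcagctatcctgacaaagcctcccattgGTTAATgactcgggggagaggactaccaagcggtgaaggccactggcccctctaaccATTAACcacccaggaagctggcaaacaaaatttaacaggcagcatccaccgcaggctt
SERPINA7, chrX:106038728-106038977, minus strand: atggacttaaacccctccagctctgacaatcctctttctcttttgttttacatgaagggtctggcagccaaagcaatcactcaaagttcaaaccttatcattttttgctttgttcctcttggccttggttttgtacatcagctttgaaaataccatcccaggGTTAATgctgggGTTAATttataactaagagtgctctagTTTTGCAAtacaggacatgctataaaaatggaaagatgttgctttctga

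The HNF1 letters lay 76 bases before this start of SERPINA1, at 3 places in the SERPINA6 window (170, 115 and 58 bases before the start) and at 2 places in the SERPINA7 window (88 and 76 bases). In the AHSG window the HNF4 letters lay 178 bases and the C/EBP letters 59 bases before the start, and the FETUB window shown held none of the 4 motifs. A window at another annotated start of FETUB held the C/EBP letters, 143 bases before that start. A window at another annotated start of SERPINA1 held none of the 4 motifs. The SERPINA6 window also held the FOXA letters and the SERPINA7 window the C/EBP letters, and no match overlapped another. Over all 35116 promoter windows of the same length, 6.23% held the HNF1 letters, 2.98% the FOXA letters, 3.20% the HNF4 letters and 9.05% the C/EBP letters. Of the 12 windows of these genes, counting alternative starts, 3 held the HNF1 letters, 1 the FOXA letters, 2 the HNF4 letters and 4 the C/EBP letters. A match describes the letters of a window and was not tested as a binding site.

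In 3D culture 2 of the 10 genes fell and 1 rose. The inhibitor heavy chain gene ITIH2 and the fetuin gene AHSG fell, and the fetuin gene FETUB, low in both cultures, rose. The other 7 genes did not pass the test, which was edgeR's quasi-likelihood test at an adjusted p under 0.05 over 15314 genes. Over all genes tested this rule called 36.6%, with 19.0% higher and 17.6% lower in 3D, so the 30% called among these 10 genes is near the background. The 3D and 2D libraries did not overlap for 5 genes, of which 2 were higher and 3 lower in 3D, against 25.6% of all tested genes apart and higher and 24.9% apart and lower. The median log2 fold change was −0.24 for the 10 genes and 0.02 for all genes tested. Levels are CPM, counts scaled with TMM to a common total, fold changes are 3D over 2D, and in bulk RNA fewer cells expressing a gene and less RNA per cell cannot be told apart.

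**Figure D1:**
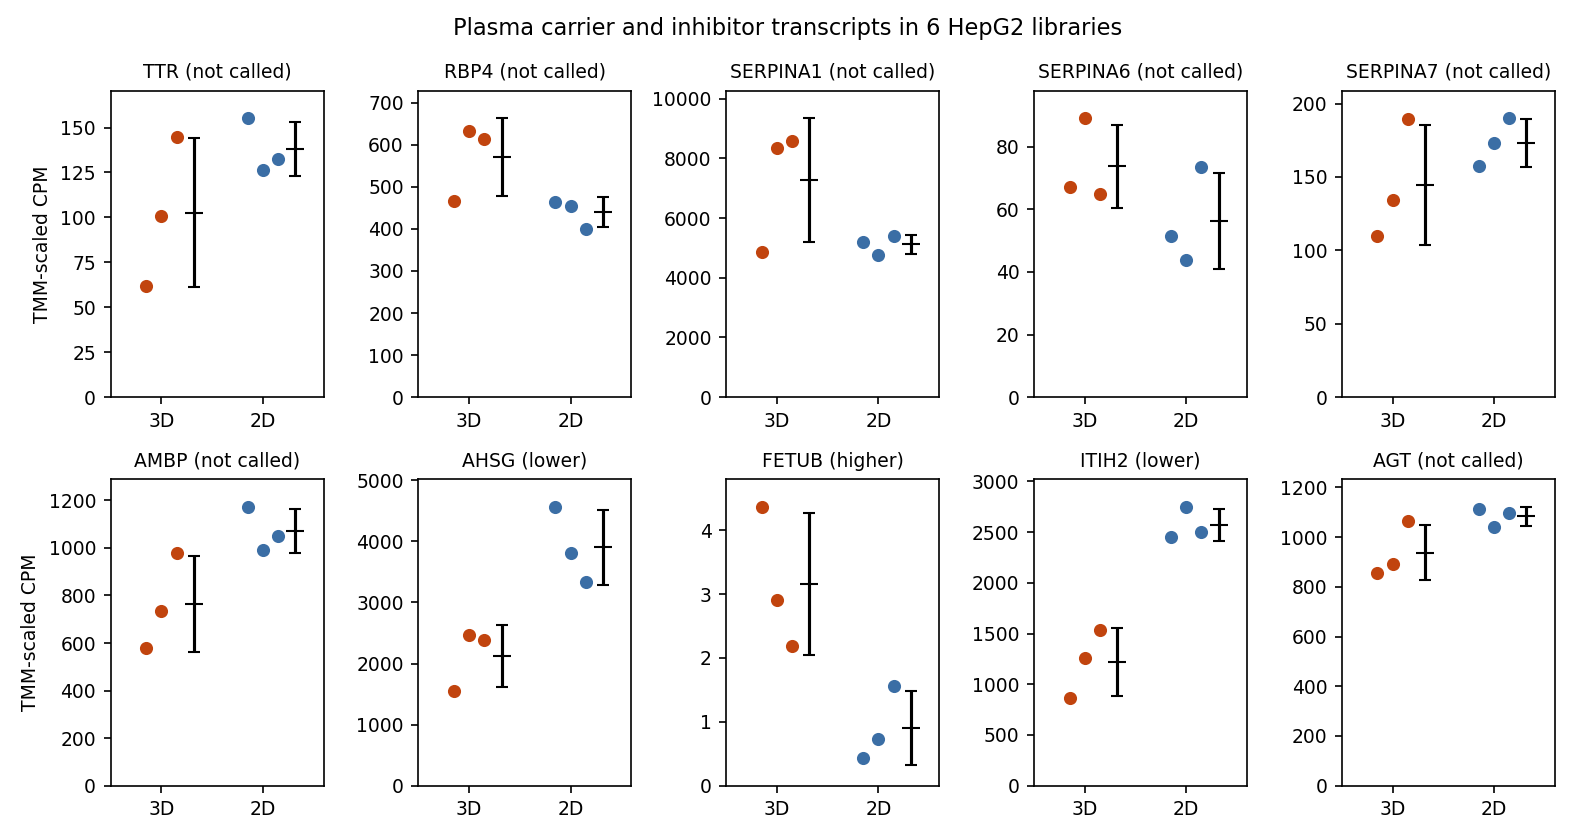
TMM-scaled CPM (vertical axes, each from 0) of the 10 genes in the 3 3D libraries and the 3 2D libraries; points are libraries in replicate order, and the dash with its bar is the mean ± SD. The 3D and 2D points do not overlap for ITIH2, AHSG and AMBP, which were lower in 3D, and for FETUB and RBP4, which were higher.

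Among the carriers of retinol and hormones, RBP4 (hg38 chromosome 10, 93591687 to 93601745) stood at 465.5, 633 and 614 CPM in the 3D libraries and at 464.7, 455 and 399.7 CPM in the 2D libraries. The lowest 3D library stood barely above the highest 2D library, so the groups did not overlap. The log2 fold change was 0.38 (95% interval 0.06 to 0.70, edgeR adjusted p = 0.0636), and without 3D replicate 1 it was 0.49 with an adjusted p = 0.00953. With a correction for transcript length and GC the RBP4 difference was −0.05 (interval −0.37 to 0.27), so its direction turned with that correction. TTR (chromosome 18, 31591726 to 31599022) stood at 62.0, 100.9 and 145 CPM in 3D and at 155, 127 and 133 CPM in 2D. Its groups overlapped, since 3D replicate 3 reached the range of the 2D libraries. The TTR log2 fold change was −0.43 (interval −1.01 to 0.16, edgeR adjusted p = 0.231), and it was −0.18 (adjusted p = 0.396) without 3D replicate 1 and −0.76 (adjusted p = 0.0206) without 3D replicate 3.

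The hormone-binding serpins did not pass the test either. SERPINA6 (chromosome 14, 94304248 to 94323395) stood at 67.1, 89.0 and 65.0 CPM in 3D and at 51.5, 43.9 and 73.5 CPM in 2D, with a log2 fold change of 0.39 (interval −0.04 to 0.82, edgeR adjusted p = 0.144). The highest 2D library lay above 2 of the 3D libraries, and without that library, 2D replicate 3, the log2 fold change was 0.62 (adjusted p = 0.0248). SERPINA7 (chromosome X, 106032442 to 106038739) stood at 109.8, 134.5 and 189.5 CPM in 3D and at 157, 173 and 189.9 CPM in 2D. Here too 3D replicate 3 was level with the 2D libraries, while the other 3D libraries lay below all of them. The SERPINA7 log2 fold change was −0.26 (interval −0.66 to 0.14, edgeR adjusted p = 0.283), against −0.11 without 3D replicate 1 (adjusted p = 0.587) and −0.51 without 3D replicate 3 (adjusted p = 0.0277).

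Of the protease inhibitors, SERPINA1 (chromosome 14, 94376747 to 94390694) was the most abundant of the 10 transcripts by CPM in both groups. It stood at 4873, 8355 and 8571 CPM in 3D and at 5210.4, 4774 and 5391 CPM in 2D. Replicates 2 and 3 of 3D lay above every 2D library, while 3D replicate 1 lay within their range. Its log2 fold change was 0.50 (interval 0.05 to 0.96, edgeR adjusted p = 0.0791), and it was called without 3D replicate 1 (log2 0.71, adjusted p = 0.00272). With all 6 libraries DESeq2 called SERPINA1 higher (adjusted p = 0.0294), and RBP4 as well (0.0379).

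AMBP and ITIH2 encode the light and a heavy chain of inter-alpha-trypsin inhibitor. AMBP (chromosome 9, 114060127 to 114078473) stood at 577, 734 and 979 CPM in 3D and at 1173, 992 and 1049 CPM in 2D. All 3D values lay below all 2D values, by a narrow margin in 3D replicate 3. Without that library the log2 fold change was −0.71 (edgeR adjusted p = 0.0109), and without 3D replicate 1 it was −0.34 (adjusted p = 0.102). Its log2 fold change of −0.49 (interval −0.89 to −0.09) missed the threshold with edgeR (adjusted p = 0.0545), passed it with DESeq2 (0.0189) and limma-voom (0.0392), and was −0.87 in the fit corrected for length and GC (edgeR adjusted p = 0.00475).

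ITIH2 (chromosome 10, 7703269 to 7749521) stood at 862, 1256 and 1531 CPM in 3D and at 2449, 2749 and 2505 CPM in 2D. The highest 3D library thus lay well below the lowest 2D library. It averaged 1216 ± 336 CPM in 3D and 2568 ± 159.7 CPM in 2D (SD, n = 3 each). ITIH2 fell by 1.08 on the log2 scale (SE 0.19), to 0.474 times the 2D level, with an edgeR adjusted p = 0.0016. The fall held in every run that left out a library, at log2 fold changes of −1.28 to −0.90.

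The fetuin genes lie next to each other on chromosome 3, 14650 bases apart, and moved in opposite directions. AHSG (186612923 to 186621319) stood at 1542, 2463 and 2379 CPM in 3D and at 4565, 3804 and 3338 CPM in 2D. All 3D libraries lay below all 2D libraries, with averages of 2128 ± 509 CPM in 3D and 3902 ± 619 CPM in 2D (SD, n = 3 each). AHSG fell by 0.87 on the log2 scale (SE 0.20, edgeR adjusted p = 0.00579), to 0.545 times the 2D level, and leaving out a library gave −0.996 to −0.703. FETUB (186635969 to 186653142) had 44, 45 and 31 counts in the 3D libraries and 7, 12 and 28 counts in the 2D libraries. Its level was 4.36, 2.91 and 2.18 CPM in 3D and 0.438, 0.727 and 1.55 CPM in 2D, without overlap. FETUB rose 3.37-fold (log2 1.75, SE 0.45, edgeR adjusted p = 0.0112). It passed the low-count filter in all 3D libraries but in only 2 of the 2D libraries, and its call was lost without 2D replicate 2 and 3D replicate 1 together (log2 1.31, adjusted p = 0.0926). An antisense gene that overlaps both fetuin genes, RP11-573D15.8, had at most 8 counts in a library.

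AGT (chromosome 1, 230702523 to 230714298) had the smallest log2 fold change of the 10 genes. It stood at 855, 892 and 1064 CPM in 3D and at 1114, 1042 and 1097 CPM in 2D. Only 3D replicate 3 reached the 2D range, and the log2 fold change was −0.21 (interval −0.51 to 0.09, edgeR adjusted p = 0.249). In the fit corrected for length and GC it was −0.43 (adjusted p = 0.0336), a call that was lost when the replicate block was added (adjusted p = 0.0782).

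**Figure D2:**
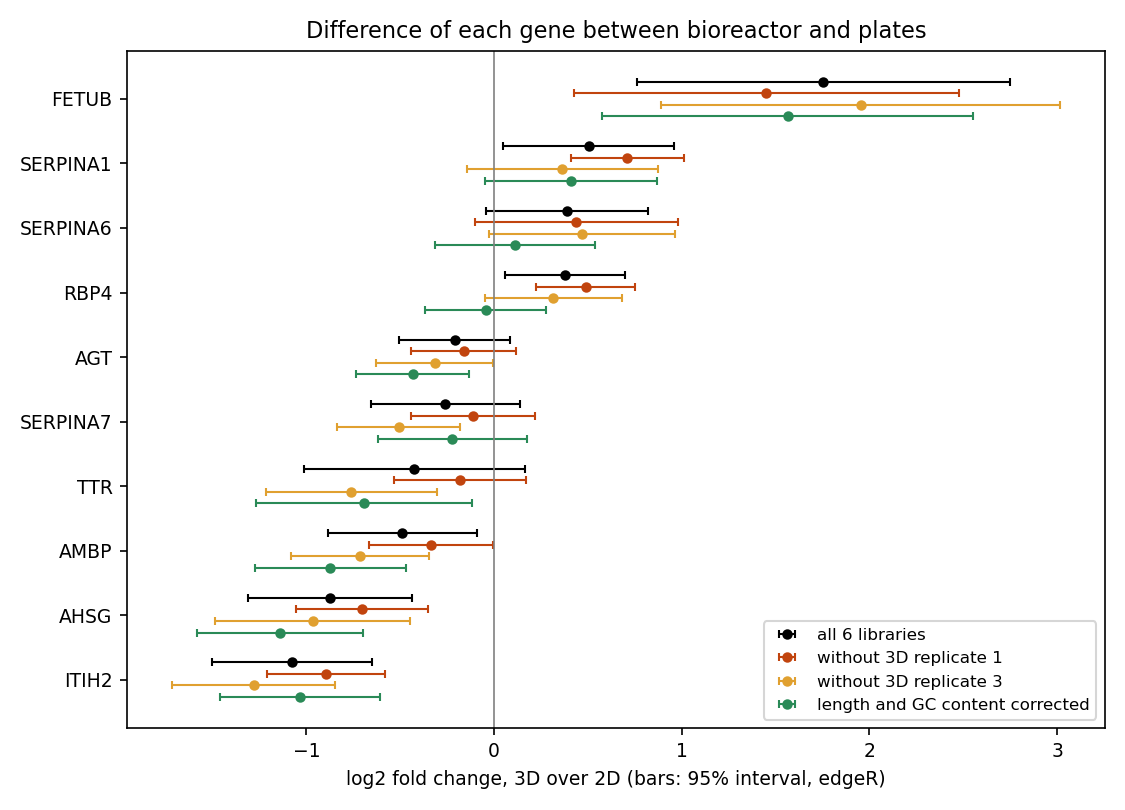
Log2 fold change of 3D over 2D for each of the 10 genes with its 95% interval from edgeR, for all 6 libraries, for runs leaving out 3D replicate 1 or 3D replicate 3, and for the fit corrected for length and GC. The whole intervals of AHSG, ITIH2 and AMBP lie left of 0 and that of FETUB right of 0 in all 4 runs. AMBP was nevertheless not called with all 6 libraries. Of the 10 genes only RBP4 changes sign between these runs, at −0.05 with the correction.

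Ratios of counts within a library do not depend on the scaling between libraries. The ratio of SERPINA1 to AHSG was 3.16, 3.39 and 3.60 in the 3D libraries and 1.14, 1.26 and 1.62 in the 2D libraries. AHSG and SERPINA1 counts were thus closer to each other on plates, and the groups did not overlap. The ratio of ITIH2 to AMBP was 1.49, 1.71 and 1.56 in 3D and 2.09, 2.77 and 2.39 in 2D. Every 3D library thus held fewer ITIH2 counts per AMBP count than any 2D library, and other heavy chain genes are not in this ratio. A ratio within a library is not corrected for transcript length, and with the length and GC correction the 2 genes were closer in their change, at −1.04 for ITIH2 and −0.87 for AMBP (log2). The ratio of TTR to RBP4, which form a complex in plasma, was 0.133, 0.160 and 0.236 in 3D and 0.334, 0.278 and 0.332 in 2D, again without overlap. The ratio of RBP4 to AGT was 0.544, 0.709 and 0.577 in 3D and 0.417, 0.437 and 0.364 in 2D, higher in every 3D library. By contrast, the ratio of SERPINA7 to TTR, both thyroxine carriers, was 1.77, 1.33 and 1.31 in 3D and 1.01, 1.37 and 1.43 in 2D, and the groups overlapped. The ratio of SERPINA1 to SERPINA6 overlapped too, at 72.7 to 132 in 3D and 73.3 to 109 in 2D. In all 7 ratios were computed, chosen after the values were seen. For 3 against 3 libraries the smallest 2-sided exact permutation p is 0.1, which the first 3 ratios, FETUB to AHSG and RBP4 to AGT reached (0.14 adjusted over the 7), so no ratio could pass 0.05.

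**Figure D3:**
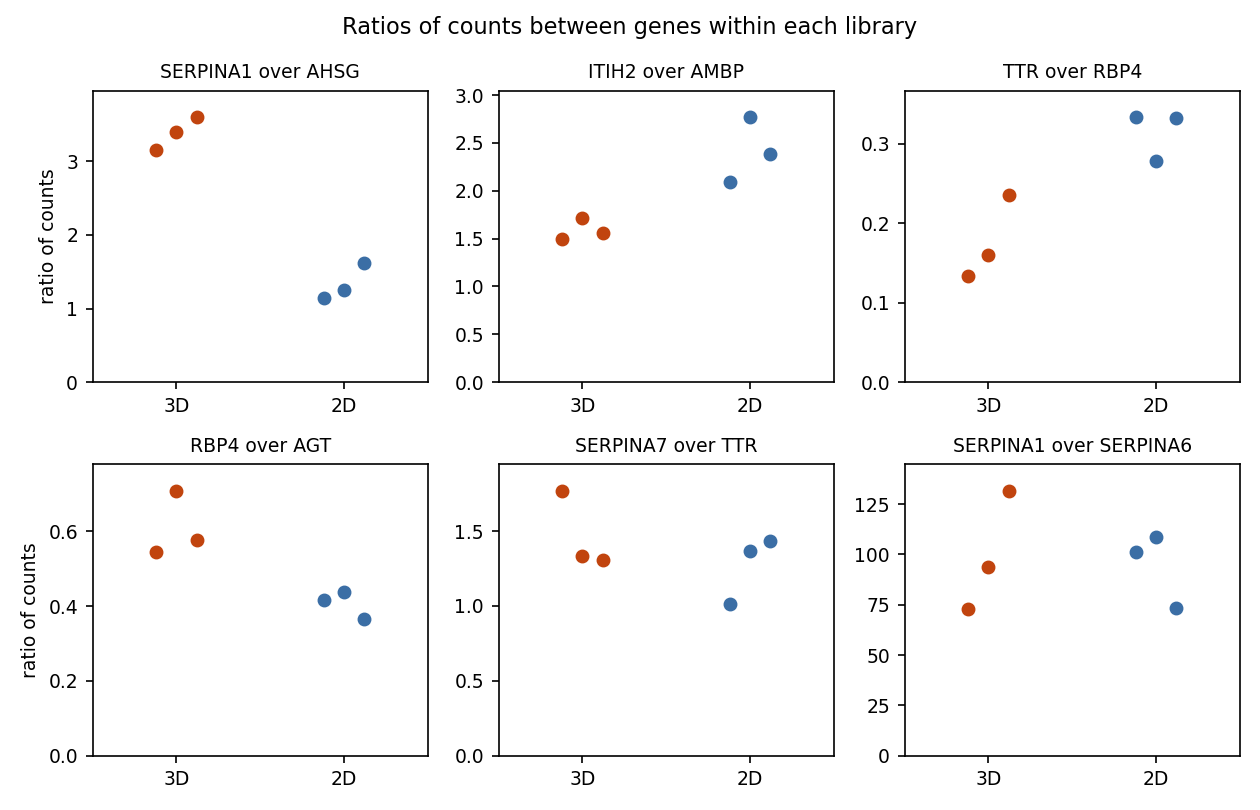
Ratio of the counts of 2 genes within each library (vertical axes, each from 0), with 1 point per library, for 6 of the 7 ratios. The 3D and 2D points stand apart for SERPINA1 over AHSG, ITIH2 over AMBP, TTR over RBP4 and RBP4 over AGT, and they overlap for SERPINA7 over TTR and SERPINA1 over SERPINA6.

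Levels of different genes were compared as CPM per kilobase of 1 GENCODE 29 transcript per gene. It was the longest of those marked as principal, or else the longest. In 3D the order was SERPINA1 (2057), AHSG (1244), AMBP (532), RBP4 (434), AGT (409), ITIH2 (381), TTR (107), SERPINA7 (54.7), SERPINA6 (48.0) and FETUB (1.94 CPM per kilobase). In 2D the order was AHSG (2281), SERPINA1 (1451), ITIH2 (804), AMBP (747), AGT (473), RBP4 (335), TTR (144), SERPINA7 (65.6), SERPINA6 (36.7) and FETUB (0.557 CPM per kilobase). By this measure AHSG led in 2D, where its range did not overlap that of SERPINA1, and SERPINA1 led in 3D, where the ranges overlapped. The order depends on the transcript taken, of 3532 bases for SERPINA1 and 1711 bases for AHSG. By CPM SERPINA1 was above AHSG in every library. Other transcript lengths were not tested. Among the 15314 genes tested, SERPINA1 ranked 11 by CPM in 3D and 13 in 2D, AHSG 32 in 3D and 21 in 2D, and ITIH2 62 in 3D and 27 in 2D. At the other end FETUB ranked 12195 in 3D and 14271 in 2D. In 3D the ranges of neighbours overlapped from AMBP through RBP4 and AGT to ITIH2, and from TTR through SERPINA7 to SERPINA6. In 2D the ranges of ITIH2 and AMBP overlapped, and those of the other neighbours in the order did not.

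The 10 genes together held 0.996%, 1.43% and 1.52% of all counts in the 3D libraries and 1.51%, 1.41% and 1.42% in the 2D libraries. Only 3D replicate 1 stood apart. Without SERPINA1 the shares were 0.481%, 0.614% and 0.682% in 3D and 0.994%, 0.937% and 0.882% in 2D, with all 3D libraries lower. The genes called lower weighed in these shares. AHSG held 0.163%, 0.240% and 0.233% in 3D and 0.448%, 0.380% and 0.335% in 2D. ITIH2 held 0.0912%, 0.122% and 0.150% in 3D and 0.240%, 0.274% and 0.252% in 2D. Of the others, AMBP was also lower in every 3D library, and RBP4 and FETUB were higher. SERPINA1 alone held 0.516%, 0.813% and 0.839% in 3D and 0.512%, 0.476% and 0.541% in 2D.

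The 3D libraries varied more than the 2D libraries for most of these genes. 3D replicate 1, the library with the fewest counts, was the lowest 3D library for 8 of the 10 genes, against 38.2% of all genes tested. SERPINA6 and FETUB were lowest in 3D replicate 3. The 14 hepatocyte markers checked for the identity of the cells were all in the table. Of these 2 rose and 4 fell, against 19.0% and 17.6% of all genes tested. Without 3D replicate 1, 4 rose, and 1 rose without 3D replicate 2, 3D replicate 3, 2D replicate 1 or 2D replicate 2. Among the 14 markers, 3 or 4 fell when a library was left out. Their summed level was also lowest in 3D replicate 1, at 23126, 34558 and 37107 CPM in 3D and 34042, 35662 and 37876 CPM in 2D. This sum mixed markers that moved in opposite directions. APOA1 rose 2.61-fold and TF 1.63-fold, and APOB, CPS1 and TAT were among those that fell. APOB alone stood at 5135, 9040 and 5716 CPM in 3D and at 16555, 18504 and 18208 CPM in 2D. Whether the lower summed level in 3D replicate 1 has a part in the results was not tested. Without 3D replicate 1 the log2 fold change was −0.70 for AHSG and −0.90 for ITIH2. The coefficient of variation was larger in 3D for 8 of the 10 genes, with a median of 27.1% in 3D and 9.01% in 2D, and for 74.7% of the 7739 genes with a mean of at least 20 CPM, whose medians were 13.1% in 3D and 7.31% in 2D.

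Fold changes over the whole table moved with transcript length. Over 10 groups of genes of like size, ordered by length, the median ran from 0.39 for the shortest transcripts to −0.40 for the longest (log2, 3D over 2D). TTR, with a transcript of 957 bases, lay in the shortest group and RBP4, SERPINA6, AMBP and FETUB in the next, whose median was 0.30. The values of TTR and AMBP thus lay below the median of genes of their length, while RBP4 at 0.38 was close to it. ITIH2 and SERPINA1, at 3193 and 3532 bases, lay in the same group, with a median of 0.0046, and had log2 fold changes of opposite sign. After the correction AHSG was at −1.14 (edgeR adjusted p = 0.00187) and ITIH2 at −1.04 (0.00271). TTR was then at −0.69 (adjusted p = 0.068), and SERPINA6 at 0.11 (0.698).

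SERPINA1 and SERPINA6 lie in a cluster of serpin genes on chromosome 14. Along the cluster, SERPINA10, an inhibitor of coagulation factors X and XI, fell to 19.99 CPM in 3D, against 40.6 CPM in 2D (log2 −1.01, edgeR adjusted p = 0.00308). SERPINA11, another serpin of the cluster, fell to 28.4 CPM in 3D, against 56.3 CPM in 2D (log2 −0.98, adjusted p = 0.00136). SERPINA6 and SERPINA1 sit between these genes, with positive log2 fold changes that did not pass the test. The other serpins tested in the cluster, SERPINA12, SERPINA4, SERPINA5 and SERPINA3, did not pass it either and are named for their position, after their values were seen. Their log2 fold changes ran from −0.37 for SERPINA3 to 0.10 for SERPINA12, which had at most 13 counts in a library. The table gives SERPINA4 and SERPINA5 overlapping coordinates, so how reads were shared between them is uncertain, and the same holds for SERPINA3 and a gene model that spans it. Beyond the fetuins on chromosome 3, KNG1, the kininogen gene, had a log2 fold change of 1.02 (edgeR adjusted p = 0.086), and HRG was too low to test.

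**Figure D4:**
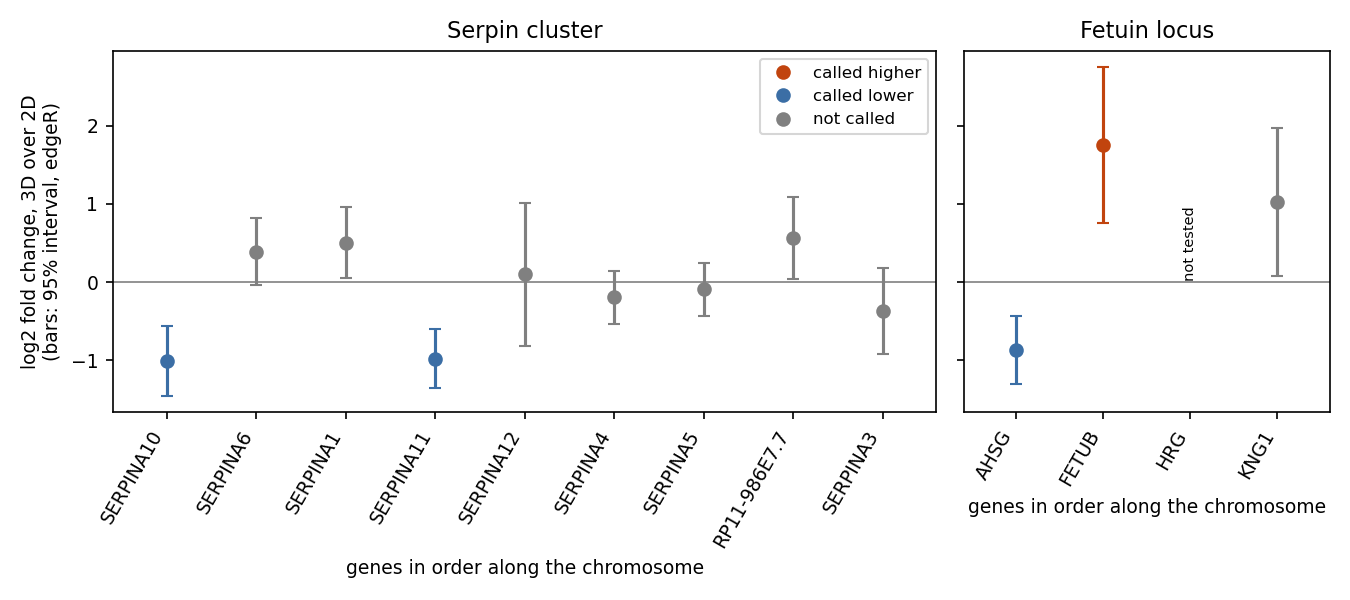
Log2 fold change of 3D over 2D with 95% intervals (edgeR) for the genes of the serpin cluster and the fetuin locus, in their order along the chromosome and not to scale. SERPINA10 and SERPINA11 were called lower on either side of SERPINA6 and SERPINA1, and AHSG was called lower beside FETUB, which was called higher.

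Of 251 further genes in 12 family and pathway lists, 191 were tested, and 31 rose (16.2%) and 49 fell (25.7%), against 19.0% and 17.6% of all genes tested. Among 6 other clade A serpins 0 rose and 2 fell, which are the cluster members SERPINA10 and SERPINA11. Among 21 other plasma protease inhibitors 5 rose and 5 fell. TFPI, the tissue factor pathway inhibitor, fell to 191 ± 20.1 CPM in 3D, against 479 ± 44.3 CPM in 2D (SD, n = 3 each; log2 −1.33, edgeR adjusted p = 6.8e-05). SPINT1, a membrane inhibitor of hepatocyte growth factor activator, rose to 8.75 CPM in 3D, against 2.48 CPM in 2D (log2 1.80). Among 11 lipocalins and cystatin domain proteins 2 rose and 2 fell, against 4 that rose and 1 that fell without 3D replicate 1 and 1 that fell without 2D replicate 1. CST3, cystatin C, rose 2.49-fold, to 874 CPM in 3D, against 351 CPM in 2D. LCN15, a lipocalin, stood at 10.8, 17.96 and 3.45 CPM in 3D and was almost unmeasured in 2D, at 0.438, 0 and 0.167 CPM. The 2 that fell were APOM (log2 −0.86) and LCN2 (log2 −2.51). LCN2 was low in both cultures, at means of 0.282 CPM in 3D and 1.51 CPM in 2D.

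In the inter-alpha-trypsin inhibitor family and its partners, 2 of 6 tested genes rose and 1 fell. ITIH3, another heavy chain, fell to 201 ± 58.4 CPM in 3D, against 340.1 ± 44.9 CPM in 2D (SD, n = 3 each; log2 −0.76, edgeR adjusted p = 0.0109), a call that was lost without 2D replicate 2 and 3D replicate 1 together (adjusted p = 0.0624). ITIH5, a heavy chain expressed outside the liver as well, rose to 59.2 CPM in 3D, against 38.2 CPM in 2D (log2 0.63). FURIN, a protease that cuts precursors in the secretory pathway, rose 2.09-fold. ITIH1 and ITIH4 stayed low, with means of 5.18 and 1.499 CPM in 3D against 6.00 and 1.17 CPM in 2D, and did not pass the test; they are named after their values were seen. Among 15 other plasma carriers 1 rose and 3 fell. These counts turned on single libraries: 7 rose without 3D replicate 1, 0 rose without 3D replicate 2, 3D replicate 3, 2D replicate 1 or 2D replicate 2, and 1 fell without 2D replicate 1 or 2D replicate 2. AZGP1, a zinc-binding glycoprotein, fell to 90.6 CPM in 3D, against 164 CPM in 2D (log2 −0.85).

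Around the cargo of the carriers, 6 of 21 retinoid handling genes rose and 2 fell, or 1 fell without 3D replicate 1, 3D replicate 2, 2D replicate 1 or 2D replicate 2. ALDH1A1, which oxidises retinal to retinoic acid, rose 3.78-fold (log2 1.92, SE 0.23, edgeR adjusted p = 0.000278), to 446 ± 131 CPM in 3D, against 118 ± 22.6 CPM in 2D (SD, n = 3 each). Of 14 thyroid hormone genes 2 rose and 5 fell. SLC16A10, an amino acid transporter that also moves thyroid hormone, fell to 19.2 CPM in 3D, against 39.3 CPM in 2D. KLF9, a transcription factor induced by thyroid hormone, fell to 14.5 CPM in 3D, against 27.8 CPM in 2D. The 2 that rose were SULT1A3 and SULT1A1, with log2 fold changes of 2.17 and 0.74. Of 15 glucocorticoid genes 2 rose and 2 fell, or 1 fell without 2D replicate 1. SGK1, a kinase induced by glucocorticoids, rose 1.96-fold, and TAT, a liver enzyme that they induce, fell to 4.16 CPM in 3D, against 16.7 CPM in 2D. Of 11 genes of the renin-angiotensin system 4 rose and 2 fell. Without 2D replicate 1 these counts were 2 and 1, and without 2D replicate 2 or 2D replicate 3 1 gene fell. THOP1, a peptidase that can cleave angiotensin I, rose 1.82-fold. Of 8 genes linked to mineral binding 1 rose and 2 fell, and 2 rose when 3D replicate 3 or any 2D library was left out. ENPP1, which makes the calcification inhibitor pyrophosphate, fell to 101 CPM in 3D, against 349 CPM in 2D (log2 −1.79, edgeR adjusted p = 4.18e-05).

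Of 39 genes for export of secreted proteins 3 rose and 13 fell, and their median was −0.14 (log2). Leaving out 3D replicate 1 gave 5 that rose, leaving out 3D replicate 2 or 3D replicate 3 gave 1, and leaving out 2D replicate 1 or 2D replicate 3 gave 0, while 10 to 16 fell when a library was left out. EDEM3 and SEL1L, both of the disposal route for misfolded glycoproteins in the endoplasmic reticulum, fell to 22.1 and 95.2 CPM in 3D, against 74.1 and 244 CPM in 2D. MAN1A1, a mannosidase that trims glycans, fell to 393 CPM in 3D, against 788 CPM in 2D. The 3 that rose were CALR, KDELR1 and SEC31A, with log2 fold changes of 0.47, 0.44 and 0.39. Among 29 tested regulators of plasma protein genes 4 rose and 11 fell. CEBPB fell to 91.9, 58.1 and 125 CPM in the 3D libraries, against 382, 369 and 311 CPM in the 2D libraries (log2 −1.95, SE 0.25, edgeR adjusted p = 0.000465). CEBPA moved the other way, to 218, 217 and 201 CPM in 3D, against 105, 136 and 135 CPM in 2D (log2 0.76, or 0.41 after the length and GC correction). ONECUT2 and HNF4G, transcription factors of the onecut and HNF4 families, fell to 20.2 and 15.4 CPM in 3D, against 58.9 and 36.6 CPM in 2D. HNF4A averaged 325 CPM in 3D and 354 CPM in 2D, and FOXA2 94.5 CPM in 3D and 78.2 CPM in 2D, and neither passed the test with edgeR, although FOXA2 was called without 3D replicate 2 (log2 0.396, adjusted p = 0.0194).

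**Figure D5:**
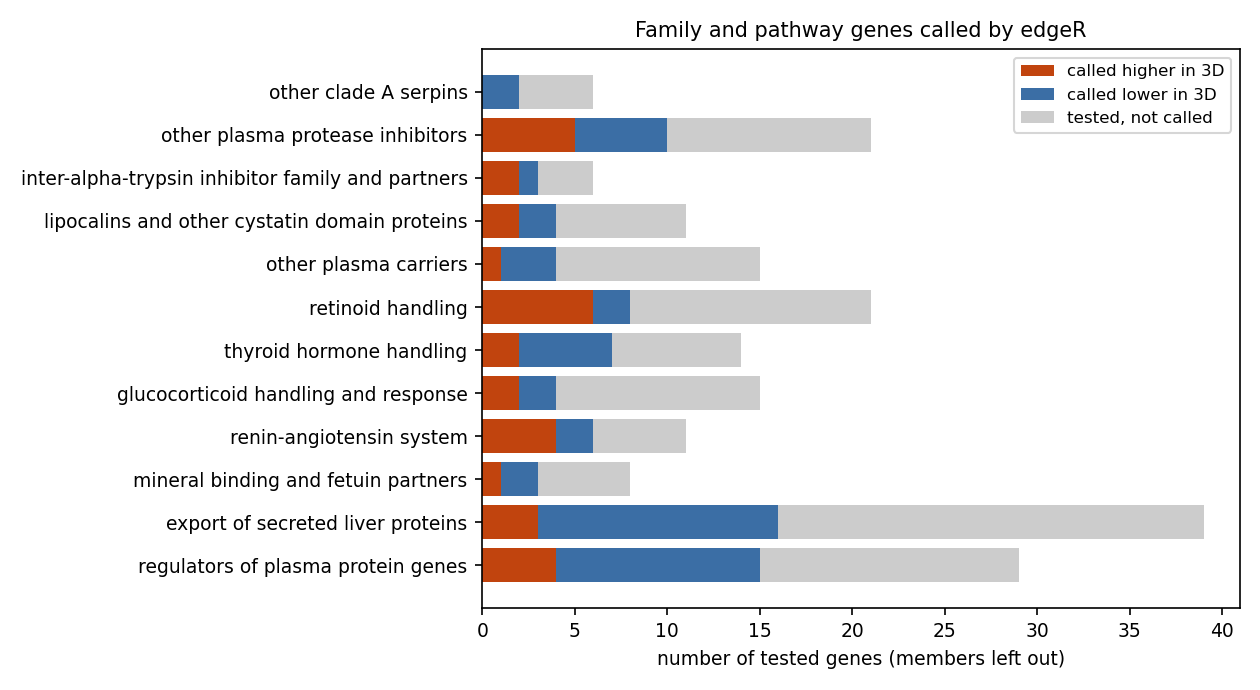
Number of tested genes in each of 12 family and pathway lists that were called higher in 3D, called lower in 3D or not called by edgeR (horizontal stacked bars from 0). Export of secreted proteins (3 higher, 13 lower of 39) and regulators (4 higher, 11 lower of 29) hold the most genes called lower. They are also the lists with the most tested genes. Thyroid hormone handling had 5 lower of 14, and over all genes tested 17.6% were called lower.

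Markers of other cell types were checked beside these groups. Of 10 cholangiocyte markers 7 were in the table and 6 were tested. Of these 6, 5 rose and 1 fell, against 19.0% and 17.6% of all genes tested. The summed level of the list was 1076 to 1314 CPM in 3D and 704 to 910.2 CPM in 2D. The most abundant genes of the list did not move together. SPP1 and KRT19 rose to 524 and 227 CPM in 3D, against 232 and 70.9 CPM in 2D, and SOX9 fell to 272 CPM in 3D, against 369.97 CPM in 2D, a call that was lost without 2D replicate 3. The endothelial list summed to 3.66 to 8.72 CPM in 3D and 2.55 to 5.03 CPM in 2D, the fibroblast list to 25.5 to 43.0 CPM in 3D and 35.5 to 45.0 CPM in 2D, and the blood list to 26.5 to 45.9 CPM in 3D and 9.10 to 12.003 CPM in 2D. Of these lists, 5, 4 and 4 of 10 genes each were in the table. CD68, which many cell types express in lysosomes, made up most of the blood list, at 22.3 to 41.4 CPM in 3D and 6.14 to 9.58 CPM in 2D. COL1A1 rose to 13.8 CPM in 3D, against 1.26 CPM in 2D, while PDGFRB and ACTA2 fell. PTPRC, CD3E, KDR, COL1A2, COL3A1, DCN and LUM were among the markers looked for, and no values of their own are given here. The part of these markers in the results was not tested.

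The genes most like ITIH2 across the 6 libraries, among 7731 other genes with a mean of at least 20 CPM, were RP11-1143G9.5, CEBPG, a C/EBP family factor, and MXD1, an antagonist of MYC. The log2 of CPM plus 1 was taken and centred on the mean of each gene. These values differed from those of ITIH2 by a root mean square of 0.08, 0.10 and 0.10. CEBPG stood at 52.2, 70.4 and 79.7 CPM in 3D and at 152, 169.9 and 159 CPM in 2D; this likeness is what chose it. For FETUB the nearest were PASK, FHOD1 and NPTXR, at 0.14, 0.14 and 0.15. FETUB averaged 3.15 CPM in 3D and 0.907 CPM in 2D, so the added 1 narrowed its difference between the groups. In the edgeR fit the log2 fold change was 1.75 for FETUB, against 1.18 for PASK, 0.97 for FHOD1 and 1.29 for NPTXR. Likeness over 6 libraries in 2 groups describes these libraries only.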

How the data were processed

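Messenger RNA of 6 HepG2 samples was sequenced, and groups and replicate numbers come from the titles. The submitters' processing notes name STAR 2.4.1d, Partek and hg38; annotation, counting settings and strand handling were not given in the sources used here. Per gene, the authors deposited estimated counts, unscaled, and 61.7% of values are whole with a tolerance of 0. The lowest gene total in the table is 10. In the table the stop lies 1 base past the GENCODE 29 end for 98.3% of genes with the same start. Estimated counts were rounded, which moved no library total by more than 25.0 counts.

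Genes were tested with edgeR 4.0.16 in R 4.3.3: filterByExpr (minimum count 10), TMM, a robust quasi-likelihood fit on culture alone and Benjamini-Hochberg adjustment over 15314 genes; all 10 genes described were tested. SEs come from the F statistic. Alternatives used DESeq2 1.42.0, limma-voom (3.58.1), other scalings and filters, the replicate number as a block, a correction for transcript length and GC by loess with span 0.5 (GENCODE 29, 88.5% of tested genes matched by symbol) and leaving out each sample. The pair of 2D replicate 2 and 3D replicate 1 and a run on protein-coding genes were added after seeing the data. Scripts were tested on simulated data. The genes and lists were chosen with earlier results of these data known. Named genes are the 10 genes, up to 3 called genes per list and direction at 1 CPM or more by largest fold change, 5 regulators whatever their result, and 3 genes most like the strongest rise and fall; some of these are not reported here. Replicates of a group differed by more than counting noise (chi-square per degree of freedom 10.3 to 26.7). Intervals cover the spread between libraries.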

Additional observations from a re-analysis of the deposited data

How the results depend on the processing

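AHSG and ITIH2 stayed called lower under every alternative run, at edgeR adjusted p = 0.0343 or less when a library was left out. The number of the 10 genes called higher was 1, and became 3 with DESeq2, 2 with upper-quartile scaling and 2 without the pair of 2D replicate 2 and 3D replicate 1; leaving out a library gave 1 to 3. The number called lower was 2, and became 4 with the length and GC correction. It was 3 with DESeq2, limma-voom, RLE scaling, the correction with the replicate block, and protein-coding genes only. Leaving out a library gave 2 to 5, with 5 without 3D replicate 3. RBP4 was 0.37 with DESeq2, 0.40 with upper-quartile scaling, 0.51 without the pair, −0.046 with the length and GC correction and −0.046 when that was combined with the replicate block. SERPINA1 was 0.50 with DESeq2 and 0.66 without the pair. AMBP was called at −0.50 with DESeq2, −0.52 with limma-voom, −0.50 with RLE scaling, −0.50 on protein-coding genes, −0.87 with the correction and −0.89 with the correction and block. AGT was called at −0.43 with the correction and not with the correction and block (adjusted p = 0.0782), and FETUB was 1.31 and lost its call without the pair. Leaving out each library gave log2 fold changes of −0.76 to −0.18 for TTR, 0.29 to 0.49 for RBP4, 0.36 to 0.71 for SERPINA1, 0.22 to 0.62 for SERPINA6, −0.51 to −0.11 for SERPINA7 and −0.71 to −0.34 for AMBP. FOXA2 reversed to −0.015 and −0.020 with the correction, without and with the block. The share of counts in the 10 genes was −0.13 percentage points in 3D minus 2D, and leaving out a library gave −0.236 (without 3D replicate 3) to 0.0270 (without 3D replicate 1). The cause of these shifts was not tested. Over all genes, 2910 were called higher, against 1878 with the correction and 1938 without 2D replicate 1. The replicate block left 1 gene higher and 2 lower among the 10. Nothing states that the numbers pair samples, so they were not taken to do so. Deviations from the group mean correlated at 0.07, −0.02 and −0.10 for same-numbered samples. 3D replicate 3 correlated best with 2D replicate 2 (0.13). With 3 libraries in each group these correlations are tied to one another and cannot decide on pairing. FETUB had the fewest counts of the 10 genes, 7 to 45 in a library, and what depth limits was not tested.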
